A study of Mus musculus with 6 samples.

Results

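The interstitial fibrillar collagens of types 1, 3 and 5 are encoded by Col1a1, Col1a2, Col3a1, Col5a1, Col5a2 and Col5a3. These 6 genes were taken by name from the 18193 genes that the array annotation names by 1 symbol, with earlier results of these data known. They are read by 14 of the 34945 probe sets with 1 symbol, a probe set being a group of short oligonucleotides that reports 1 transcript or part of it. Their RNA was compared between Slc39a13-KO and wild-type mouse chondrocytes, with 3 Affymetrix mouse genome arrays in each group.

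In the KO mice, which were bred from R1 embryonic stem cells through crosses of heterozygotes, a Neo cassette takes the place of exons 6 to 8 of Slc39a13. The wild-type mice carry the intact gene, which encodes a zinc transporter of the ZIP family. Both groups were untreated primary cultures from the rib cages of newborn mice, released with collagenase and grown in serum, and no sort or purification of the cells is described. The number of animals behind each array is not given in the sources used here, so the p-values measure the spread between arrays, which may be partly technical.

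Fibrillar collagens are secreted as procollagens, in which 3 chains wind into a triple helix in the endoplasmic reticulum. Type 1 collagen, made of Col1a1 and Col1a2 chains, is the bulk fibril protein of bone, tendon and skin, and Col3a1 forms the type 3 homotrimer of skin and vessels. Type 5 collagen, built mainly from Col5a1 and Col5a2 chains, starts type 1 fibrils and limits their thickness, while Col5a3 forms a rarer type 5 trimer. Cartilage fibrils hold types 2 and 11 instead, and types 1 and 3 are made by the perichondrium around cartilage and by cultured chondrocytes that lose their rounded form. In humans, variants of COL1A1, COL1A2, COL3A1, COL5A1, COL5A2 or SLC39A13 underlie forms of Ehlers-Danlos syndrome, a connective tissue disorder.

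Markers of the labelled cell type were present. Col2a1, the cartilage fibril collagen, had signals of 62818, 42449 and 40475 in KO cells, against 29852, 34583 and 37220 in wild-type cells, and all 14 chondrocyte markers on the list were bright enough to test. Slc39a13 itself had 100.5, 196 and 165 in KO cells, against 901, 1081 and 991 in wild-type cells, and its log2 fold change was -2.67 (limma, adjusted p = 0.000189). Whether its probe set lies within the deleted exons is not known here. KO replicate 1 was the least like the rest. Its median signal was 108, against 80.7 to 88.4 on the others, and its correlation with any other array reached at most 0.925, while each of the others reached 0.948 to 0.960 with at least 1 array (Pearson, log2 values of all probe sets). Xist was high (6445 and 5194) on KO replicate 2 and WT replicate 3 and between 79.0 and 107 on the other 4 arrays, on which Y-linked genes were high.

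Of the 6 genes, Col1a1, Col1a2, Col3a1 and Col5a1 were higher in KO cells, by 1.44-fold to 1.76-fold, while Col5a2 and Col5a3 did not pass the test and 0 were lower. All fold changes here are KO minus wild type on the scale log2(signal + 7.96), which understates the change of dim genes, and a gene was called at a limma adjusted p under 0.05. The count of 4 of 6 compares with 4.64% of the 12726 tested genes that were higher in KO cells by the same rule, and 4.65% were lower. The median log2 fold change of the 6 genes was 0.56, against 0.01 over all tested genes. At an unadjusted p under 0.05, 5 of the 6 were higher and 0 were lower, against 12.7% higher and 12.4% lower of all tested genes. On 5 of the 6 genes every KO array was above every wild-type array, which held for 16% of tested genes. In RNA from a mixed culture, fewer cells of a type and less RNA per cell cannot be told apart.

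The promoters of these genes are shown because the members that rose together differ in the sequence around their annotated start sites. Whether these cultures use the annotated starts was not tested, and the motifs counted depend on where each entry places the start. RefSeq promoter entries of mouse build GRCm38.p6, 250 bases before to 50 after the start, were found for 4 of the 6 genes, and the entries of Col1a2, Col3a1 and Col5a1 follow, all on the plus strand. Capitals mark the letters CCAAT (bound by the NF-Y complex), GGGCGG (the GC box bound by Sp1), CAGAC (the core read by Smad proteins) and TATAAA (the TATA box), each searched on both strands.
Col1a2, chr6:4505368-4505667: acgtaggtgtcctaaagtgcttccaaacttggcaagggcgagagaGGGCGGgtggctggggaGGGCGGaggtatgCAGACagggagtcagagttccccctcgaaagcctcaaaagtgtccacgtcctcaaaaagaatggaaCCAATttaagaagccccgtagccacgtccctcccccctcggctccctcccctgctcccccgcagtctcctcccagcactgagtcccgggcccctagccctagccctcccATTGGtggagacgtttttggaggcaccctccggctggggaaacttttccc
Col3a1, chr1:45311288-45311587: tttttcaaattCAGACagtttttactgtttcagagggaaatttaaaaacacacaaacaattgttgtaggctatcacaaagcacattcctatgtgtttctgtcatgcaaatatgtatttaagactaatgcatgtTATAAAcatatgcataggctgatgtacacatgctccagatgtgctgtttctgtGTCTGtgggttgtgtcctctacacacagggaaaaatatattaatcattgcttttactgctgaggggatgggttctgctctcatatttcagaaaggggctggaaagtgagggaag
Col5a1, chr2:27886175-27886474: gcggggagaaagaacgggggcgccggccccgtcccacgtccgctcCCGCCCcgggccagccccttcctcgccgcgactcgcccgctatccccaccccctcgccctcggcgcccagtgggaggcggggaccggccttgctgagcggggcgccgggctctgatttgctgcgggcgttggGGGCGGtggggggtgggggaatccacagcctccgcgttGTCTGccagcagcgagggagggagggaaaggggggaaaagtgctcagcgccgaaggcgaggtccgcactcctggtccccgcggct

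The Col1a2 sequence held 2 CCAAT, 2 GC box and 1 CAGAC match, and 61.0% of its bases were G or C. The Col3a1 sequence held 2 CAGAC matches and 1 TATAAA match that begins at position -117 from the annotated start, with 37.7% G or C. The Col5a1 sequence held 2 GC box matches and 1 CAGAC match, with 75.0% G or C. Over 32851 mouse promoters of this length, 37.4% held CCAAT, 35.7% the GC box, 49.6% CAGAC and 13.6% TATAAA, and the median G and C content was 52.7%. Of the 4 motifs, only CAGAC was found in all 3 printed sequences, and it was also the one most often found over all promoters. Col5a3, on chromosome 9, held 1 CCAAT and 3 GC box matches. No entry was found for Col1a1, on chromosome 11, or for Col5a2. Col3a1 and Col5a2 are neighbours on chromosome 1, with 0 listed genes between them.

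Col1a1, the alpha 1 chain present in 2 copies in each type 1 trimer, was read at its brighter probe set (1423669_at) at 12987, 13634 and 8799 in KO cells, against 5949, 8231 and 7523 in wild-type cells. The groups did not overlap, but KO replicate 3 lay only a little above the highest wild-type array. The means were 11807 ± 2625 in KO cells and 7235 ± 1168 in wild-type cells (SD, n = 3 each). The log2 fold change was 0.69 (SE 0.17, 95% interval 0.32 to 1.07, limma adjusted p = 0.0301). The dimmer probe set, 1455494_at, had 1008, 1104 and 959 in KO cells, against 829, 935 and 876 in wild-type cells. Its groups did not overlap either, and its log2 fold change of 0.22 did not pass (limma over probe sets, adjusted p = 0.237). Leaving out any 1 array except KO replicate 3 ended the call of Col1a1, with adjusted p of 0.0523 to 0.113.

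Col1a2, the alpha 2 chain, had signals of 32945, 27959 and 24172 in KO cells, against 15957, 20133 and 20237 in wild-type cells at its brightest probe set (1450857_a_at). Every KO array was above every wild-type array, and the means were 28359 ± 4400 in KO cells and 18776 ± 2442 in wild-type cells (SD, n = 3 each). The log2 fold change was 0.59 (SE 0.13, limma adjusted p = 0.0210). At a separate probe set, 1423110_at, it had 15946, 15817 and 14109 in KO cells, against 7812, 10189 and 9679 in wild-type cells. Here the KO arrays lay close together and well above the wild-type arrays, with a log2 fold change of 0.74 (SE 0.11, limma over probe sets, adjusted p = 0.00534). The third probe set, 1446326_at, was dim in both groups, at 60.1 ± 0.391 in KO cells and 55.0 ± 4.85 in wild-type cells, and did not pass (log2 fold change 0.11, adjusted p = 0.890). The call of the brightest probe set was lost without KO replicate 2 (limma adjusted p = 0.0618), WT replicate 1 (0.0837) or WT replicate 2 (0.0575).

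Col3a1, the single chain of the type 3 homotrimer, had 8393, 7366 and 7297 in KO cells, against 4870, 5230 and 5966 in wild-type cells at its brighter probe set (1427883_a_at). The lowest KO array was above the highest wild-type array, with means of 7685 ± 614 in KO cells and 5355 ± 559 in wild-type cells (SD, n = 3 each). The log2 fold change was 0.52 (SE 0.10, limma adjusted p = 0.00867). Its other probe set, 1427884_at, which carries the same source accession in the annotation, had 476, 447 and 421 in KO cells, against 456, 437 and 456 in wild-type cells. These groups overlapped, and the log2 fold change was -0.0076 (95% interval -0.27 to 0.26, adjusted p = 0.978), so the probe sets of Col3a1 disagree. Without WT replicate 2 the call of the brighter probe set was lost (limma adjusted p = 0.0523).

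Col5a1, the alpha 1 chain of type 5 collagen, had the lowest adjusted p of the 6 genes. Its brightest probe set (1416740_at) had 9995, 9618 and 9184 in KO cells, against 4822, 5755 and 5793 in wild-type cells. The KO arrays were close to each other and far above the wild-type arrays, with means of 9599 ± 405 in KO cells and 5457 ± 550 in wild-type cells (SD, n = 3 each). The log2 fold change was 0.82 (SE 0.09, 95% interval 0.62 to 1.02, limma adjusted p = 0.000751). Its other probe sets gave like values. At 1434479_at the means were 4324 ± 317 in KO cells and 2602 ± 221 in wild-type cells (log2 fold change 0.73, adjusted p = 0.00255), and at 1416741_at they were 1277 ± 102 in KO cells and 750.3 ± 55.5 in wild-type cells (log2 fold change 0.76, adjusted p = 0.00390, both limma over probe sets). The call held with each array left out in turn.

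Col5a2, the alpha 2 chain of type 5 collagen, had 31820, 29367 and 28723 in KO cells, against 22470, 25851 and 27043 in wild-type cells at its brighter probe set (1422437_at). The groups did not overlap, but the gap between the lowest KO array and the highest wild-type array was small. The log2 fold change was 0.26 (SE 0.09, 95% interval 0.05 to 0.47) and did not pass (limma adjusted p = 0.122). At its other probe set, 1450625_at, it had 9070, 9545 and 10031 in KO cells, against 7199, 7907 and 7340 in wild-type cells. There every KO array was clearly above every wild-type array, and the log2 fold change of 0.35 (SE 0.08) passed (limma over probe sets, adjusted p = 0.0275). The call of Col5a2 thus depended on which probe set stood for it.

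Col5a3, the alpha 3 chain of type 5 collagen, had 161, 235 and 239 in KO cells, against 160, 187 and 154 in wild-type cells at 1419703_at. KO replicate 1 lay among the wild-type arrays, and the other KO arrays lay above them. The log2 fold change was 0.31 (SE 0.22, 95% interval -0.18 to 0.80, limma adjusted p = 0.422), an interval that reaches the size of the changes of the other members. Its second probe set, 1425984_at, had 59.3, 20.8 and 4.83 in KO cells, against 24.7, 3.28 and 10.9 in wild-type cells, and was too dim to test.

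**Figure D1:**
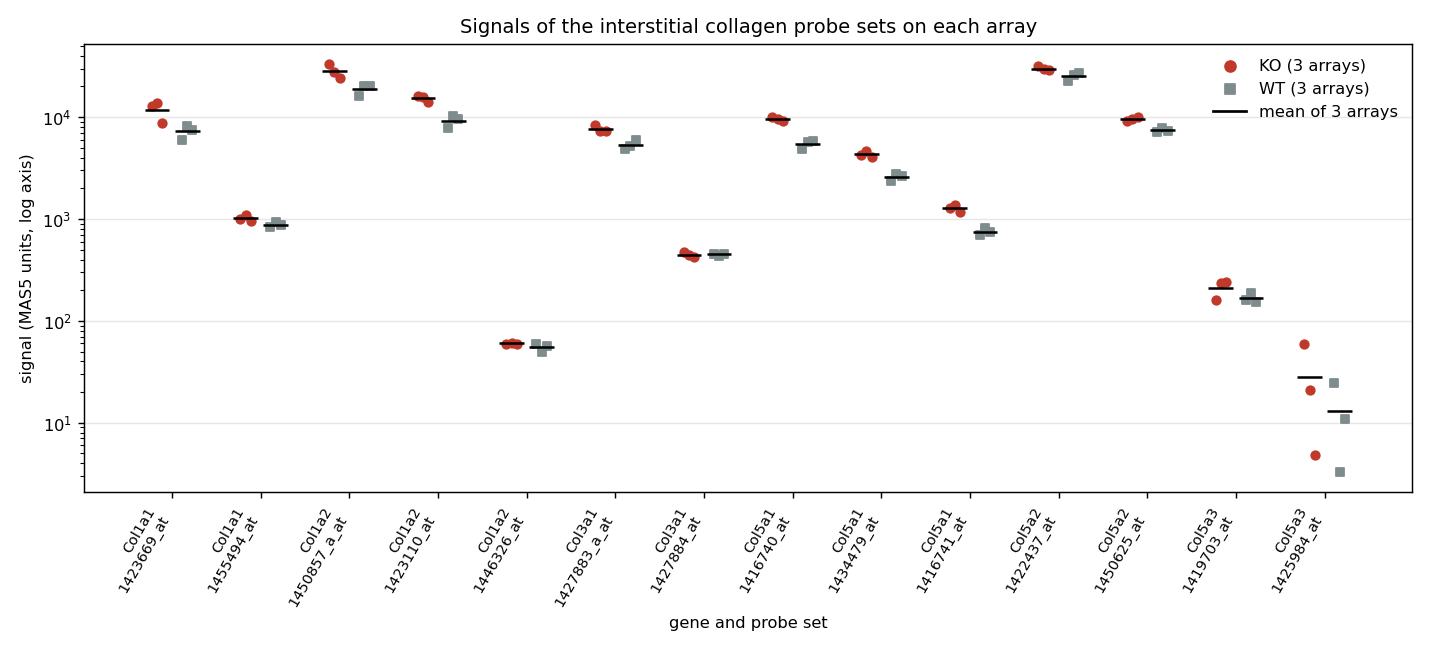
Signals of all 14 probe sets of the 6 collagen genes on a log axis, with a point for each array (KO circles left, WT squares right) and a bar for the mean of 3 arrays. The KO points lie above the WT points at the brighter probe sets of Col1a1, Col1a2, Col3a1 and Col5a1 and overlap them at Col5a3.

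Counted by probe set, 13 of the 14 passed the filter on low signals, and 8 of these 13 were higher in KO cells and 0 lower (limma adjusted over 23309 probe sets), against 3.44% of all tested probe sets that were higher and 3.36% that were lower. At an unadjusted p under 0.05, 0 of the 13 were lower, against 11% of all tested probe sets. In 11 of the 13, every KO array was above every wild-type array, against 15.1% of all tested probe sets. The 5 that did not pass were the dimmer ones of Col1a1, Col1a2 and Col3a1, the brighter one of Col5a2 and that of Col5a3. Probe sets of 1 gene share their RNA and are not separate observations.

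**Figure D2:**
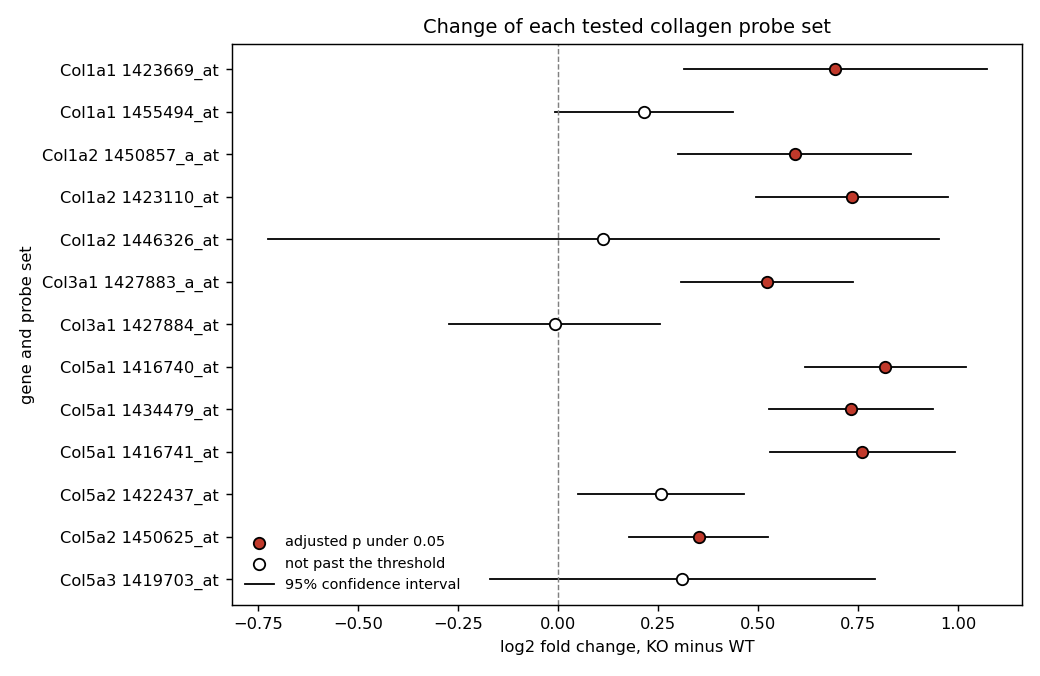
Log2 fold change (KO minus WT) of each of the 13 tested collagen probe sets, with its 95% confidence interval as a line, filled where the adjusted p over probe sets is under 0.05. The 3 probe sets of Col5a1 lie between 0.73 and 0.82, while those of Col3a1 lie at 0.52 and -0.0076.

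At the brightest probe set of each gene, the fold changes of the 6 genes differed in size. Among the 15 pairs of members, the within-array difference between the pair separated KO from wild-type arrays in 6. The share of all gene pairs that separate was not computed, and pairs that share a gene are not independent, so this count is only a description. The comparison of pairs was chosen after the values had been seen. Col5a1 had a larger fold change than Col5a2, its partner in the type 5 trimer. The difference of their log2 values, relative to its wild-type mean, was 0.53, 0.59 and 0.56 in KO cells, against -0.02, 0.04 and -0.02 in wild-type cells. The arrays of each group lay close together and the groups far apart, with a mean difference of 0.56. At these brightest probe sets Col1a2 and Col3a1 lay between them. Their log2 fold changes were smaller than that of Col5a1 (by 0.23 and 0.30) and larger than that of Col5a2 (by 0.33 and 0.27). In each of these pairs the groups did not overlap. The sixth pair without overlap was Col5a1 and Col5a3, with a difference of 0.51. Other probe sets gave another order. Probe set 1423110_at of Col1a2 had 0.74, beside 0.73 at 1434479_at and 0.76 at 1416741_at of Col5a1. Probe set 1427884_at of Col3a1 had -0.0076, below both probe sets of Col5a2 (0.26 and 0.35). Col5a1 and Col1a1, the members with the largest fold changes, could not be ordered, since their difference of 0.13 lay within overlapping groups (exact two-sided permutation p = 0.7) and turned without KO replicate 3, where Col5a1 had 0.85 and Col1a1 0.89. Col1a1 and Col1a2, the partners of type 1 collagen, differed by 0.10, with 0.04, 0.34 and -0.08 in KO cells, against -0.04, 0.09 and -0.05 in wild-type cells, and these overlapped. With 3 arrays against 3, an exact two-sided permutation test cannot go below p = 0.1, the value of all 6 separated pairs, and adjusted over the 15 pairs their p was 0.25.

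Set against Col2a1, whose own log2 fold change of 0.50 did not pass (SE 0.16, limma adjusted p = 0.0834), the changes of Col1a1, Col1a2, Col3a1 and Col5a1 were larger by 0.20, 0.10, 0.03 and 0.32, and those of Col5a2 and Col5a3 smaller by 0.24 and 0.19. The exact two-sided permutation p was 0.1 for Col5a2 and 0.3 to 1 for the others, and the lowest adjusted p over the 6 pairs was 0.6. For Col5a1 the difference was -0.02, 0.49 and 0.49 in KO cells, against 0.00, 0.05 and -0.05 in wild-type cells. KO replicates 2 and 3 thus lay above the wild-type arrays and KO replicate 1, in which Col2a1 was brightest, lay among them. For Col5a2 the difference was -0.55, -0.10 and -0.06 in KO cells, against 0.02, 0.01 and -0.03 in wild-type cells, with every KO array below every wild-type array.

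**Figure D3:**
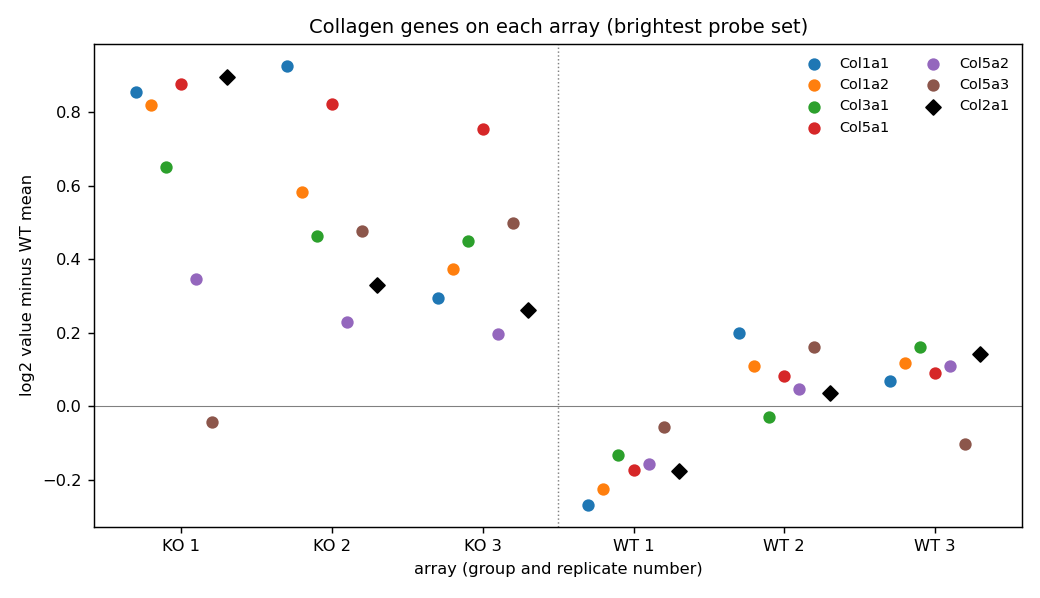
Log2 value of each collagen gene on each of the 6 arrays minus its WT mean, at the brightest probe set, with Col2a1 as diamonds and KO arrays left of the dotted line. Col5a1 is between 0.75 and 0.88 on all 3 KO arrays, while Col1a1 and Col2a1 spread widely among them and Col5a3 is near 0 on KO replicate 1.

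Across the 6 arrays the members other than Col5a3 followed each other. The 15 pairwise correlations of log2 values among all 6 genes ran from 0.329 to 0.970 with a median of 0.896, and the 5 lowest were those of Col5a3. These correlations include the difference between the groups. Taken as deviations from the group means, they ran from -0.658 to 0.963 with a median of 0.766, and 10 of 15 were above 0. The 5 below 0 all involved Col5a3, and the closest pair was Col5a1 and Col5a2. These are descriptions over 6 arrays that share scaling and, between Col3a1 and Col5a2, a chromosomal neighbourhood. The genes whose values were most like the mean standardized profile of the 6 collagens were Tmed9 (a cargo receptor of the early secretory pathway), Gemin5 (an RNA-binding protein of the SMN complex), Gucd1, Copa (a subunit of the COPI coat) and Cep85 (a centrosomal protein), with Pearson r of 0.999, 0.997, 0.996, 0.996 and 0.995 over the 6 arrays. Tmed9 had 8930, 9109 and 8297 in KO cells, against 5424, 6468 and 6532 in wild-type cells, and Copa had 11084, 11150 and 10366 in KO cells, against 8207, 9150 and 8902 in wild-type cells. Both were low on WT replicate 1, as most of the collagens were. The log2 fold changes of Tmed9, Gemin5, Gucd1, Copa and Cep85 were 0.52, 0.86, 0.53, 0.31 and 0.36, and they are given without a test because the genes were picked for a profile that was already higher in KO cells.

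Of the other fibrillar collagens, Col11a1 and Col11a2, the type 11 chains that join type 2 in cartilage fibrils, were higher in KO cells, with log2 fold changes of 0.47 and 0.91 (limma adjusted p = 0.0183 and 0.00248). Col2a1 and Col27a1 did not pass, and Col24a1 was too dim to test. The median of the 4 tested genes was 0.55, close to that of the interstitial collagens, and at an unadjusted p under 0.05 all 4 were higher. The count of 2 of 4 compares with 4.64% of all tested genes, and it was 1 without WT replicate 1 or 2, 3 without KO replicate 2 or 3, and 0 with limma without its trend. The median was 0.37 without KO replicate 1.

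Of 18 tested genes whose proteins bind fibrils or set their size, 11 were higher and 0 lower at the adjusted threshold, against 4.64% and 4.65% of all tested genes, the median log2 fold change was 0.45, and at an unadjusted p under 0.05 there were 14 higher and 0 lower, against 12.7% and 12.4%. The number higher ran over 8 to 13 with 1 array left out (8 without WT replicate 1), and it was 2 with limma without its trend and 0 with the methods' t-test. Thbs2, thrombospondin 2, a matricellular regulator of fibril shape, averaged 6782 ± 1177 in KO cells and 2940 ± 453 in wild-type cells (SD, n = 3 each, log2 fold change 1.20, limma adjusted p = 0.00124). Fmod, a small leucine-rich proteoglycan that binds type 1 fibrils, averaged 19274 ± 5254 in KO cells and 8644 ± 1299 in wild-type cells (log2 fold change 1.13). Col14a1, a collagen of fibril surfaces, averaged 547 ± 144 in KO cells and 256 ± 7.39 in wild-type cells (log2 fold change 1.04). Comp, a pentameric cartilage and tendon protein that binds collagen, averaged 18017 ± 2523 in KO cells and 10597 ± 1162 in wild-type cells (log2 fold change 0.76).

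Among 21 genes of collagen folding and hydroxylation in the endoplasmic reticulum, 6 were higher and 0 lower and the median log2 fold change was 0.21 (9 higher and 0 lower at an unadjusted p under 0.05). The shares of all tested genes were 4.64% and 4.65% (12.7% and 12.4% unadjusted). The number higher was 4 without WT replicate 1 or 3, 2 with limma without its trend and 0 with the methods' t-test. Fkbp14, a prolyl isomerase that acts on collagen, averaged 3018 ± 129 in KO cells and 1898 ± 156 in wild-type cells (SD, n = 3 each, log2 fold change 0.67, limma adjusted p = 0.00192). P3h1, a prolyl 3-hydroxylase, had a log2 fold change of 0.66. The lysyl hydroxylases Plod3 and Plod2 had log2 fold changes of 0.60 and 0.54, and P3h4 and P4ha2 also passed. The third lysyl hydroxylase, Plod1, had a log2 fold change of 0.05 and did not pass (limma adjusted p = 0.856). The collagen chaperone Serpinh1 had 0.04 and did not pass either (adjusted p = 0.794).

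Of 9 tested genes of procollagen cleavage and crosslinking, 1 was higher and 0 lower, against 4.64% and 4.65% of all tested genes. At an unadjusted p under 0.05, 4 were higher and 1 lower, against 12.7% and 12.4%. The gene called was Lox, the lysyl oxidase that starts crosslinks between fibril chains (log2 fold change 0.72, limma adjusted p = 0.00393). Lox averaged 36277 ± 4559 in KO cells and 21958 ± 1613 in wild-type cells (SD, n = 3 each). With limma without its trend or the methods' t-test, 0 genes of this list were called. Of 13 collagen receptors and turnover genes, 3 were higher and 0 lower (4 higher and 1 lower at an unadjusted p under 0.05), with a median of 0.15. They were Itga1 (an integrin subunit that binds collagen, 0.67), Mrc2 (an endocytic receptor of collagen, 0.54) and Timp1 (an inhibitor of matrix metalloproteinases, 0.29). The number higher in this list compares with 4.64% of all tested genes and was 1 without KO replicate 2, WT replicate 1 or WT replicate 3 or with the sex of the arrays as a block, and 2 without WT replicate 2. It was 0 with median centring, limma without its trend or the methods' t-test. Of 12 tested genes of other human Ehlers-Danlos types, Fkbp14, counted in the folding list too, was higher, and Slc39a13, the deleted gene, was lower. These counts are near the shares of all tested genes (4.64% higher and 4.65% lower) and are no result about the list.

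Of 28 tested regulators of type 1 collagen transcription 1 was higher and 0 lower, and the median log2 fold change was -0.0081 (4 higher and 3 lower at an unadjusted p under 0.05). These counts are near the shares over all tested genes (4.64% higher and 4.65% lower, or 12.7% and 12.4% unadjusted) and are no result about the regulators. Without KO replicate 1 or 3 the number higher was 3, and with limma without its trend 0. The higher one was Creb3l1, a membrane-bound transcription factor of the endoplasmic reticulum that drives Col1a1 in mouse osteoblasts. It averaged 1374 ± 199 in KO cells and 781 ± 85.1 in wild-type cells (SD, n = 3 each, log2 fold change 0.81, limma adjusted p = 0.00494). Smad3, Sp1 and Nfya, factors whose motif cores were searched in the promoters above, had log2 fold changes of 0.01, 0.09 and 0.20 and did not pass (adjusted p = 0.964, 0.612 and 0.270). Other listed genes of these families went either way and did not pass. They were Smad2 (0.15), Smad4 (-0.13), Smad7 (0.04), Sp3 (-0.34), Sp7 (0.59), Nfyb (-0.27) and Nfyc (-0.10).

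**Figure D4:**
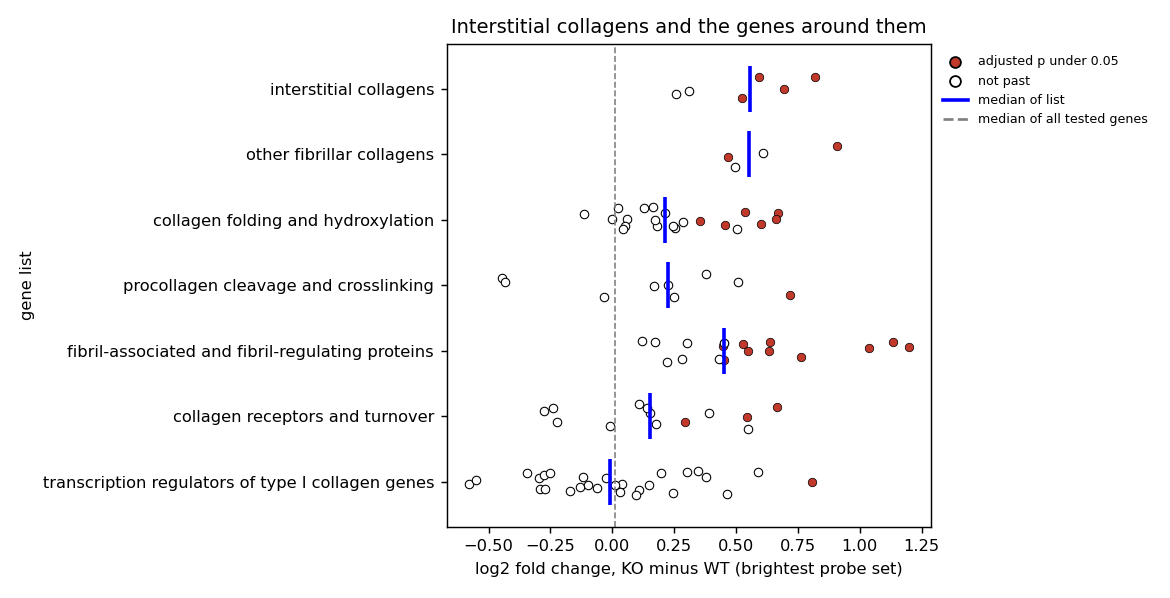
Log2 fold change (KO minus WT) of each tested gene at its brightest probe set, for the interstitial collagens and 6 lists around them, filled where the adjusted p is under 0.05, with the list median as a bar and the median of all tested genes as a dashed line. The medians of the interstitial collagens (0.56), the other fibrillar collagens (0.55) and the fibril-associated proteins (0.45) lie right of those of the transcription regulators (-0.0081) and of all genes (0.01).

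Some markers of other cells that a rib culture could hold also differed between the groups. All marker counts, here and in the next paragraph, compare with 4.64% of all tested genes that were higher and 4.65% that were lower. At an unadjusted p under 0.05 these shares were 12.7% and 12.4%. Of 10 mesothelial markers 9 were lower in KO cells and 0 higher, their median log2 fold change was -2.57, and their summed signal was 708 to 1233 in KO cells, against 5049 to 8363 in wild-type cells. Krt19, Msln and Upk3b were among them, with log2 fold changes of -3.60, -3.09 and -3.09. Of 6 tendon markers 3 were higher (Thbs4 1.43, Tnmd 1.14 and Tnc 0.45) and 0 lower (3 higher and 1 lower at an unadjusted p under 0.05). Their summed signal was 9544 to 12663 in KO cells, against 6720 to 7363 in wild-type cells. Egr1 was the brightest of the 6 and weighs most in this sum. It averaged 4640 ± 1847 in KO cells and 3207 ± 170 in wild-type cells (SD, n = 3 each), and its groups overlapped. Mkx had -0.58, with every KO array below every wild-type array, and did not pass (limma adjusted p = 0.153). Scx, which defines tendon progenitors, had -0.17 and Egr1 had 0.46, and they did not pass either. Of 6 osteoblast markers 3 were bright enough to test, and Ibsp (1.07) and Alpl (0.76) of them were higher, with a summed signal over the 6 of 2161 to 3053 in KO cells, against 1001 to 1515 in wild-type cells. Osteoblasts and tendon cells make type 1 collagen, and Dmp1, Phex and Ifitm5, markers of late bone cells, were under the filter. The osteoblast count was 1 without KO replicate 2 or WT replicate 1 and 3 without KO replicate 1, the tendon count was 2 without KO replicate 2 or WT replicate 1, and the mesothelial count was 8 to 10 with 1 array left out. With limma without its trend the osteoblast, tendon and mesothelial counts were 0, 2 and 7, and with median centring 0, 2 and 9. With the methods' t-test each of them was 0.

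Of 12 tested markers of fibroblasts and perichondrium, Lum and Postn were higher, and Dpp4, S100a4, Pdgfra and Thy1 were lower. Lower calls in this list numbered 1 without WT replicate 1 or 2, 2 without WT replicate 3 or with median centring, and 0 with limma without its trend, and higher calls 1 without KO replicate 2, WT replicate 1 or WT replicate 3. Their summed signal overlapped, at 51643 to 56731 in KO cells, against 50147 to 55425 in wild-type cells. Of 14 chondrocyte markers 4 were higher (Acan, Comp, Cnmd and Col9a1) and 1 lower (Col9a3), against 4.64% and 4.65% of all tested genes. Their summed signal was 157402 to 220994 in KO cells, against 117453 to 139313 in wild-type cells. The chondrocyte calls numbered 2 higher and 0 lower without WT replicate 1 or 2, 3 higher and 2 lower without KO replicate 1, and 0 with limma without its trend. Of 5 tested skeletal muscle markers 1 was higher (Tnnt3) and 1 lower (Acta1), with a summed signal over 8 of 2373 to 2777 in KO cells, against 2154 to 2278 in wild-type cells. Acta1 was not called without WT replicate 1 or 2. Of 5 tested macrophage markers 1 was lower (Cd14), which was lost without KO replicate 2 or any 1 wild-type array, and their summed signal overlapped. Of 4 smooth muscle markers and 1 endothelial marker, 0 passed in limma, with 1 higher and 0 lower at an unadjusted p under 0.05. None of these 16 lists had a gene at 0 on any array. The part of these other cells in the collagen values was not tested.

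Without KO replicate 1, the array least like the others, 3 of the 6 collagen genes and 7 of the 13 probe sets were called. Col1a1 was the gene lost, with a log2 fold change of 0.61 (limma adjusted p = 0.0658), while Col5a1 had 0.79 (adjusted p = 0.00140). The lists of folding genes, fibril-associated proteins and other fibrillar collagens had 6, 11 and 2 higher genes without it, as with it. With the sex of the arrays as a block, 4 collagen genes and 7 probe sets were called. When each array was centred on its median, Col5a1 alone was called among the 6 genes (log2 fold change 0.72, adjusted p = 0.0182), and 0 folding genes and 4 fibril-associated proteins were higher. That scaling moved the median log2 fold change of all genes to -0.0834 and the calls over all genes to 106 higher and 228 lower, against 590 and 592 as reported.

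**Figure D5:**
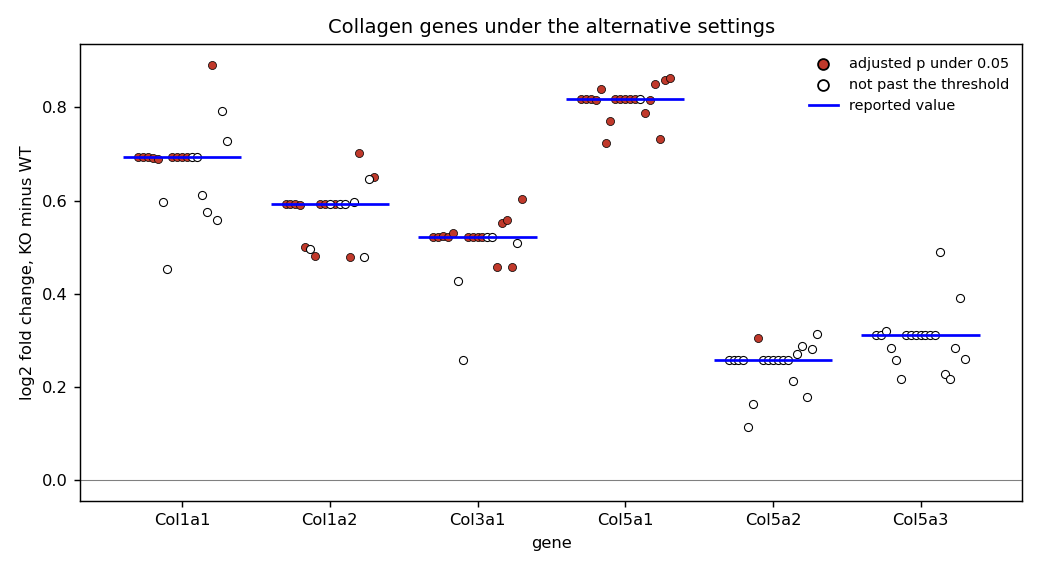
Log2 fold change (KO minus WT) of each collagen gene under the alternative settings other than the choice of a single other probe set, filled where the adjusted p is under 0.05, with the reported value as a line. All values lie above 0, and among the 6 genes Col5a1 keeps the most filled points.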

How the data were processed

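Total RNA of each culture was labelled as biotinylated cRNA by a one-cycle method and hybridized to 1 array. The deposited intensities are linear, 1 per probe set. The authors' processing notes name MAS5 (no version stated) and their methods name gcRMA. Every array has a trimmed mean of 500.003 and the quantiles differ, as MAS5 leaves them. The table holds 45101 probe sets, and the annotation gives 1 symbol to 34945, several to 932 and none to 9160, and 64 are controls. Only those with 1 symbol were tested. The log2 of the signal plus 7.96 (the 10th percentile) was taken, those averaging below the 40th percentile (5.80) were dropped, and the brightest of the 23309 left stood for each of 12726 genes. The number of arrays and, for dim probe sets, the signal limit the precision.

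KO was set against wild type in limma 3.58.1 under R 4.3.3 (lmFit, then eBayes with its trend), without covariates. The p-values were adjusted by Benjamini-Hochberg over the genes tested, or over the probe sets tested where so stated. Differences between genes were tested with exact permutations (SciPy 1.17.1). Promoters and gene neighbours are from RefSeq, GRCm38.p6.

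The members, the 16 lists and the tests were chosen with earlier results of these data known. The text names every probe set of the 6 genes, Slc39a13, Col2a1, up to 4 called members of each list by size of change (where none was called, up to 2 by p), and the 5 genes of most similar pattern. Other named genes were chosen after their values were seen. The alternatives were other filters, pseudocounts, scalings and probe sets, a block for replicate number or sex, the methods' t-test, limma without its trend and leaving out each array.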

Additional observations from a re-analysis of the deposited data

How the results depend on the processing

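Limits of these data are the 3 arrays per group, the dim probe sets (Col5a3, 1446326_at) and the unknown link between arrays and animals. Collagen genes called as higher numbered 4 of 6 as reported, 1 with median centring, 1 with limma without its trend, 0 with the methods' t-test (5 at an unadjusted p under 0.05) and 1 to 4 with 1 array left out. The lowest of these was without WT replicate 2, and the count was 2 without KO replicate 2 or WT replicate 1. Collagen probe sets called numbered 8 of 13 as reported, 1 with median centring, 0 with limma without its trend (8 at an unadjusted p under 0.05), 0 with the methods' t-test (10 at an unadjusted p under 0.05) and 4 to 8 with 1 array left out. They numbered 4 without WT replicate 1 or 2 and 5 without KO replicate 2 or WT replicate 3. Over all genes, limma without its trend called 122 higher and 142 lower, and the methods' t-test 41 higher and 44 lower.

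The Col1a1 log2 fold change lost its call with median centring (0.60, adjusted p = 0.105), the mean of its probe sets (0.45, 0.0537), the methods' t-test (0.69, 0.236), limma without its trend (0.69, 0.147) and probe set 1455494_at (0.22). Col1a2 lost it with median centring (0.50, 0.0877), the methods' t-test (0.59, 0.182), limma without its trend (0.59, 0.118) and probe set 1446326_at (0.11). Col3a1 lost it with median centring (0.43, 0.145), the mean of its probe sets (0.26, 0.0988), limma without its trend (0.52, 0.0802) and the methods' t-test (0.52, 0.115), and turned its direction at probe set 1427884_at (-0.0076). Col5a1 lost it only with the methods' t-test (0.82, 0.0639). Col5a2 gained the call with the mean of its probe sets (0.30, 0.0349) and at probe set 1450625_at (0.35). With each array left out, the log2 fold changes ran over 0.56 to 0.89 (Col1a1), 0.48 to 0.70 (Col1a2), 0.46 to 0.60 (Col3a1), 0.73 to 0.86 (Col5a1), 0.18 to 0.31 (Col5a2) and 0.22 to 0.49 (Col5a3). Col5a3 passed under none of the settings run. The causes of these changes were not tested.

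Arrays of the same replicate number did not deviate together (correlations of 0.03, 0.02 and -0.07 of their deviations from the group means). So few arrays per group cannot show whether a replicate number marks a shared litter or culture day, and the sources used here do not say. With the replicate block, 5 collagen probe sets were called and the Col1a2 log2 fold change of 0.59 had an adjusted p of 0.0714, with the other gene calls as reported.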
